A study of Drosophila melanogaster with 18 samples.

Results

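Setdb1 mutant first-instar larvae of Drosophila melanogaster were compared with wildtype larvae on expression arrays of total RNA. The mutant group was every array whose label gives the genotype Setdb110.1/ Setdb110.1, which is homozygous, and the control group was every array labelled wildtype. This gave 3 mutant and 6 wildtype arrays, 9 of the 18 arrays in the series. The other 9 arrays, 3 of each genotype, came from larvae labelled HP1a04/HP1a05 (HP1a mutants), HP1a04 PofD119/HP1a05 PofD119 (HP1a Pof mutants) and Su(var)3-9evo over Su(var)3-906 (Su(var)3-9 mutants), and served to find the changes that set Setdb1 mutants apart. All larvae were raised at 25 °C and collected about 48 hours after egg laying, with 200 pooled larvae in each replicate. The labels give no treatment and no sex, do not name the wildtype strain, and do not say whether the replicates came from separate crosses, so the p-values measure only the spread between these samples. Since both copies of the chromosome carry the same allele, sequence differences linked to it, or between the stocks, cannot be told apart from loss of Setdb1.

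Setdb1, encoded by the gene eggless (egg) on chromosome arm 2R, is a histone methyltransferase that methylates lysine 9 of histone H3 (H3K9), a mark of repressed chromatin. In flies it is known for silencing transposable elements and germ line genes and for H3K9 methylation on the small, largely heterochromatic chromosome 4, where the protein Pof also binds. Its partner Windei, encoded by wde, is needed for its activity. Su(var)3-9 is the enzyme known for the same mark in pericentromeric heterochromatin, and HP1a binds the mark. The RNA levels of egg and of Su(var)3-9 were not analysed here, so the targeted gene could not be checked in the Setdb1 arrays.

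The values were log2 signals normalised by the authors with RMA, and a gene was tested where its signal reached 6 on at least 3 arrays, which left 8211 genes. A gene was called where the adjusted p from limma, fitted with 1 mean per genotype over all 18 arrays, was below 0.05. Array medians over all probe sets lay between 5.93 and 6.03. The 3′-minus-5′ signal difference of 3 control transcripts, which depends on RNA integrity, was 1.25 ± 0.09 (SD, n = 3) in Setdb1 mutants and 1.67 ± 0.15 (SD, n = 6) in wildtype. The Setdb1 arrays, at 1.16 to 1.33, lay below the HP1a (1.41 to 1.91) and HP1a Pof arrays (1.43 to 1.54). They overlapped the Su(var)3-9 arrays (1.24 to 1.47). The part of this signal difference in the results, against wildtype or against the other mutants, was not tested. HP1a RNA, a check of the other genotypes, was -0.07 from wildtype in Setdb1 mutants and -0.72 and -0.68 in the HP1a and HP1a Pof mutants. Pof read 8.05 to 8.62 in the arrays labelled HP1a Pof, above the 7.41 to 7.64 of wildtype. The labels do not place the PofD119 lesion relative to the probes, so Pof checks no label there. Su(var)3-9 arrays B and C also stood apart on the second principal component. The main counts that rest on the HP1a Pof or Su(var)3-9 group are given without it too, as are some list counts. The count of genes of opposite direction below is given only with both groups. On the first component, with 55.4% of the variance, wildtype lay apart from all mutants. The third, with 8.7%, separated Setdb1 mutants from everything else, with scores between -28.07 and -21.60 against -3.48 to 16.15 for the other 15 arrays.

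**Figure D1:**
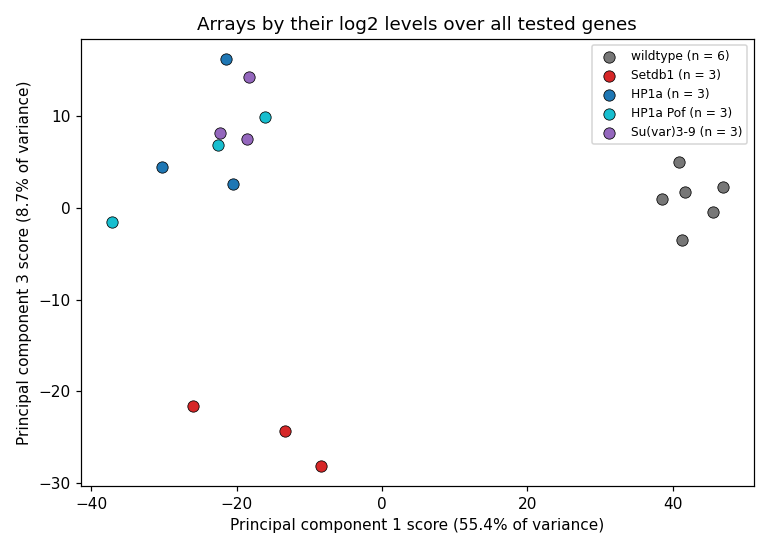
Scores of the 18 arrays on the first (horizontal) and the third (vertical) principal component of the log2 signals of all tested genes, 1 point per array, coloured by genotype. The 6 wildtype arrays lie at the right, and the 3 Setdb1 arrays lie at -21.60 or below on the vertical axis, under all other arrays.

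Against wildtype, 1419 genes were higher in Setdb1 mutants (17.3% of those tested) and 2889 were lower (35.2%), with a median change over all tested genes of -0.11 on the log2 scale. With each array centred on its median gene the counts were 2105 and 2174, so medians of gene lists between -0.11 and 0 below change sign on that scale. The arrays of both groups did not overlap in 1313 higher (16%) and 2774 lower genes (33.8%), together 4087 (49.8%). Changes of at least 2-fold were called for 413 genes that rose (5.03%) and 364 that fell (4.43%). The largest rise was in CG42816, which read 11.48, 10.91 and 10.02 in Setdb1 mutants and 4.08 to 4.61 (median 4.35) in wildtype, a change of 6.45 ± 0.40 (SE, adjusted p = 4.79e-09). Its wildtype signals were near the array's floor. It passed the filter of 6 only through mutant arrays, so part of its separation from wildtype was fixed by the filter. CG14851 and nol followed with 5.73 and 5.67. None of these 3 was set apart by the rule given below. In the other mutants CG42816 changed by 5.82 in HP1a, 6.30 in HP1a Pof and 5.90 in Su(var)3-9 mutants. The comparisons with wildtype share the same 6 wildtype arrays. Direct differences between mutants, which do not use them, are given beside the change from wildtype below.

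Setdb1 mutants differed from the mean of the other 3 mutant groups in 1734 genes, of which 1093 were higher in Setdb1 mutants (13.3%) and 641 lower (7.81%). A stricter rule asked that a gene be called in the same direction against wildtype and against each of the 3 other groups. It left 158 genes that set Setdb1 mutants apart, 71 higher (0.865%) and 87 lower (1.06%). In 56 of the 71 the 3 Setdb1 arrays lay above all 15 others, and in 75 of the 87 they lay below all 15. Over all tested genes, 96 lay above all 15 others (1.17%) and 113 below (1.38%). Without Setdb1 replicate B the 1093 and 641 genes became 597 and 346, the 71 and 87 became 40 and 68, and 100 of the 158 kept their call. Without the HP1a Pof arrays the 1093 and 641 became 926 and 454. Without the Su(var)3-9 arrays they became 1374 and 1632, so that more genes were then lower than higher. Without the HP1a Pof arrays the 71 and 87 became 81 and 115, and without the Su(var)3-9 arrays 129 and 223. The falls were the larger changes, with 40 of 87 at least 2-fold below wildtype and 18 of 71 at least 2-fold above it. By chromosome arm, 2.67% of tested genes on 2L and 2.61% on 2R were among the 158, against 1.33% on 3L, 1.94% on 3R and 0.989% on X. The Setdb1 gene lies on 2R, and whether these shares come from variants linked to the allele was not tested.

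**Figure D2:**
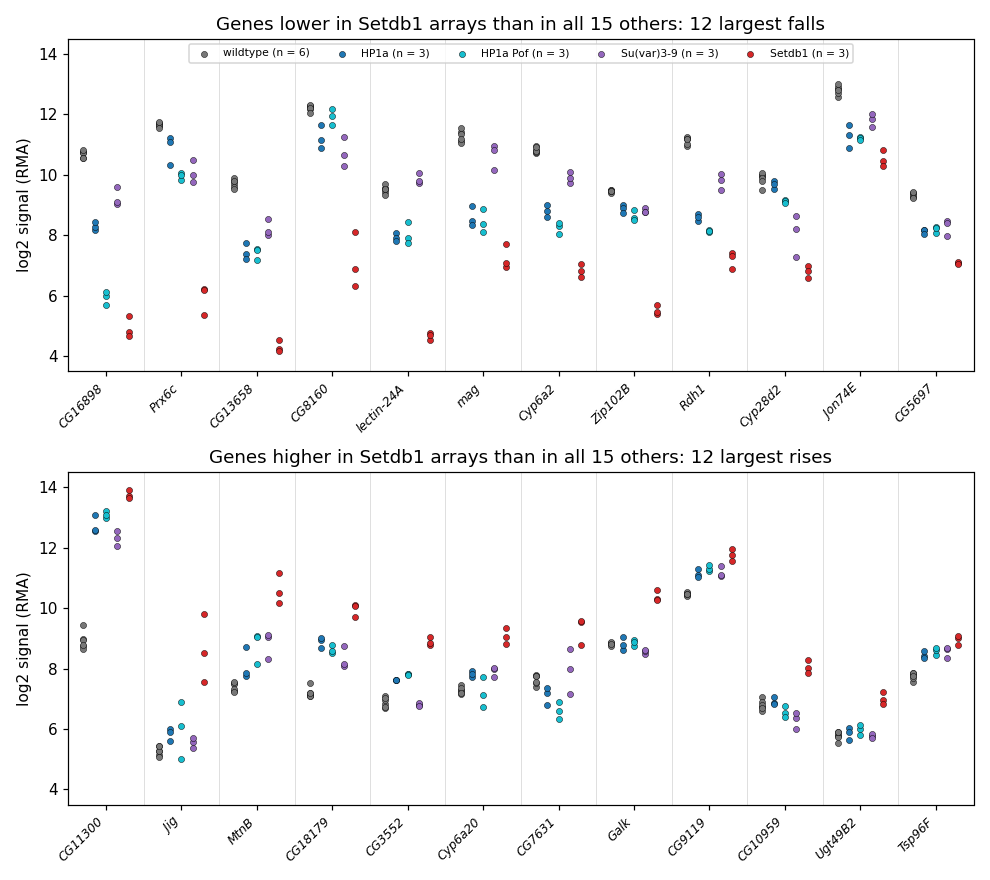
RMA log2 signal (vertical axis) of each array for the 12 genes with the largest falls and the 12 with the largest rises against wildtype, among genes whose 3 Setdb1 arrays (red) lie outside all 15 others. Each point is 1 array and colours give the genotype. The red points lie below all others in the upper panel and above all others in the lower panel.

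Several genes that set Setdb1 mutants apart had bright signals in wildtype and signals around or under the filter of 6 in the mutant. CG16898, a member of the ecdysteroid kinase-like family, read 5.34, 4.81 and 4.66 in Setdb1 mutants, 10.54 to 10.82 (median 10.73) in wildtype and 5.69 to 9.59 (median 8.26) in the other mutants. Its change from wildtype was -5.75 ± 0.15 (SE, adjusted p = 3.91e-14), a 54-fold fall. Prx6c, which encodes a peroxiredoxin that reduces peroxides, read 6.20, 5.36 and 6.19 against 11.55 to 11.75 (median 11.67) in wildtype and 9.76 to 11.22 (median 10.04) in the other mutants. The 3 Setdb1 arrays thus lay below every other array, and Prx6c changed by -5.75 ± 0.20 (SE, adjusted p = 2.95e-12). CG8160, of unknown function, read 8.10, 6.88 and 6.32 against 12.06 to 12.30 (median 12.24) in wildtype, a change of -5.11 ± 0.29 (SE, adjusted p = 1.49e-09). Its other mutant arrays, at 10.28 to 12.18 (median 11.26), reached up to the wildtype range. The C-type lectin gene lectin-24A read 4.52, 4.75 and 4.69 in Setdb1 mutants and 9.34 to 9.70 (median 9.53) in wildtype, a change of -4.86 ± 0.13 (SE, adjusted p = 5.45e-14). Su(var)3-9 mutants, at 9.72 to 10.04 for lectin-24A, lay above the wildtype range. RMA gives no detection call, so for such genes the log2 change is bounded by the array's floor and can understate the fold.

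Genes for handling metals moved both ways. Zip102B, a zinc transporter gene on chromosome 4, read 5.39, 5.47 and 5.68 in Setdb1 mutants, 9.38 to 9.51 (median 9.46) in wildtype and 8.52 to 8.98 (median 8.78) in the other mutants. The change of -3.95 ± 0.08 (SE, adjusted p = 4.24e-15) was larger than the spread in any group, and the groups did not overlap. Of its neighbours on chromosome 4, Rad23 changed by -0.20 (adjusted p = 0.0385) and Rnf11 by 2.82 (adjusted p = 5.24e-07). The neighbouring 2R genes Zip42C.1 and Zip42C.2, also of the zinc transporter family, fell too, with changes of -2.99 and -5.47. For Zip42C.2 the Setdb1 arrays read 5.05, 4.88 and 5.53, overlapping the HP1a range of 4.98 to 5.42, while Su(var)3-9 mutants read 8.48 to 8.98. The metallothionein genes MtnA, MtnB and MtnD, whose products bind copper and other metals, rose. MtnB read 11.17, 10.50 and 10.19 in Setdb1 mutants against 7.22 to 7.56 (median 7.42) in wildtype and 7.75 to 9.11 (median 8.73) in the other mutants, a rise of 3.21 ± 0.26 (SE, adjusted p = 1.06e-07). MtnD rose by 1.72 (adjusted p = 1.09e-06) and MtnA by 0.81 (adjusted p = 6.34e-05), and neither was called against the mean of the other mutants (0.31 and -0.05, adjusted p = 0.209 and 0.812). Of 27 tested genes of zinc and metal transport, 8 were higher (29.6%) and 10 lower (37.0%) than wildtype, with a median of -0.05. Over all tested genes these shares were 17.3% and 35.2%.

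The ecdysteroid kinase-like genes encode small-molecule kinases, of which one is known to phosphorylate ecdysteroids in silkworm (Bombyx mori). This family was picked after its values were seen, from general knowledge of its members. Of 36 tested members, 22 were lower (61.1%, beside 35.2% of all tested genes) and 6 higher (16.7%, beside 17.3%) than wildtype, with a median of -0.56. Against the mean of the other mutants, 12 were higher (33.3%, beside 13.3% of all tested genes) and 10 lower (27.8%, beside 7.81%). Of the 87 lower genes set apart by the strict rule, which were 1.06% of all tested genes, 6 were members. These were CG16898, CG13658, CG10559, CG31097, CG10553 and CG31974. CG13658 read 4.22, 4.53 and 4.17 in Setdb1 mutants against 9.53 to 9.88 (median 9.75) in wildtype, a change of -5.41 ± 0.14 (SE, adjusted p = 3.91e-14). Its 9 other mutant arrays, at 7.18 to 8.52 (median 7.53), lay between both groups without overlap. CG13658 belongs to a run of 21 consecutive tested genes on 3R, from CG11891 to CHKov1, all of this family. The gene next to it, CG11893, was lowest in the other mutants instead. It read 9.54, 9.75 and 9.58 in Setdb1 mutants, below the 10.52 to 10.81 (median 10.70) of wildtype, and only 5.50 to 8.62 (median 6.83) in the other mutants. Setdb1 mutants exceeded the mean of the others by 2.60 ± 0.15 (SE, adjusted p = 3.38e-09) for CG11893. Adjacent members of the run thus differed in which genotype lay lowest.

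Among genes of digestion and detoxification, some fell furthest in Setdb1 mutants. The gene mag, which encodes the gastric lipase Magro, read 7.71, 6.94 and 7.06 against 11.05 to 11.56 (median 11.27) in wildtype and 8.11 to 10.95 (median 8.85) in the other mutants, a change of -4.04 ± 0.21 (SE, adjusted p = 5.58e-10). The cytochrome P450 gene Cyp6a2, known from insecticide resistance, read 7.05, 6.83 and 6.62 against 10.73 to 10.95 (median 10.81), a change of -4.00 ± 0.11 (SE, adjusted p = 1.22e-13). Both genes lay below all 15 other arrays. Cyp28d2 changed by -3.07, the serine protease gene Jon74E by -2.28 and Rdh1 by -3.93, each outside the range of the 15 other arrays. The maltase genes Mal-A6 and Mal-A8, for digestion of sugars, fell by 2.68 and 3.21. In both maltase genes Setdb1 array A overlapped other mutants, and Mal-A6 was not called against their mean without Setdb1 replicate B (-0.98, adjusted p = 0.089) or C (-1.07, adjusted p = 0.0524). Of 63 tested P450 genes, 38 fell (60.3%, beside 35.2% of all tested genes) and 10 rose (15.9%, beside 17.3%), with a median of -0.51. Of the 63, 5 were among the 87 lower genes set apart, which were 1.06% of all tested genes. The glutathione transferase gene GstE9 read 10.64, 10.26 and 10.05 against 12.50 to 12.67 (median 12.61) in wildtype and 10.52 to 11.60 (median 10.88) in the other mutants. NLaz, a secreted lipocalin gene, read 5.88, 5.82 and 5.78 against 7.62 to 8.44 (median 7.88) in wildtype and 7.02 to 9.10 (median 7.34) in the other mutants. The changes from wildtype were -2.29 ± 0.11 (SE, adjusted p = 1.69e-10) for GstE9 and -2.11 ± 0.14 (SE, adjusted p = 8.36e-09) for NLaz, and both were set apart.

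Other digestive genes fell in the HP1a, HP1a Pof and Su(var)3-9 mutants and stayed nearer to wildtype in Setdb1 mutants. The digestive enzymes kappaTry and iotaTry are trypsins. The gene kappaTry read 9.28, 9.14 and 8.78 in Setdb1 mutants, 9.94 to 10.34 (median 10.26) in wildtype and 7.35 to 7.97 (median 7.66) in the other mutants, so that the 3 sets of arrays did not overlap. Its change of -1.17 ± 0.13 (SE, adjusted p = 3.02e-06) from wildtype was smaller than that of -2.45 in HP1a, -2.79 in HP1a Pof and -2.56 in Su(var)3-9 mutants, and Setdb1 mutants exceeded their mean by 1.43 ± 0.12 (SE, adjusted p = 5.95e-07). For iotaTry the same difference was 1.59 ± 0.18 (SE, adjusted p = 1.31e-05). LManV and LManVI, neighbouring genes of lysosomal alpha-mannosidases, were not called against wildtype (0.27 and -0.55, adjusted p = 0.206 and 0.178). LManV was called as higher than wildtype when blocked by replicate letter, at 0.51 (adjusted p = 0.0249), and LManVI as lower without Setdb1 replicate A, at -0.90 (adjusted p = 0.0487). LManVI read 10.15, 9.56 and 8.64 in Setdb1 mutants, overlapping the wildtype range of 9.71 to 10.28, while the other mutants read 6.78 to 8.28 (median 7.32). The difference of LManVI from the mean of the others was 2.01 ± 0.31 (SE, adjusted p = 0.000259), and that of LManV was 1.67 ± 0.16 (SE, adjusted p = 2.36e-06). LManII, 0.11 from wildtype (adjusted p = 0.516) and 0.31 without Setdb1 replicate C (adjusted p = 0.0304), exceeded that mean by 1.09 ± 0.12 (SE, adjusted p = 1.01e-05). These mannosidase genes were named after their values were seen.

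Over the lists, 10 of 15 tested digestive proteases and lipases were lower than wildtype in Setdb1 mutants (66.7%, beside 35.2% of all tested genes). A further 3 were higher (20%, beside 17.3%), and the median of the 15 was -0.84. Their medians were -1.55 in HP1a, -1.42 in HP1a Pof and -0.95 in Su(var)3-9 mutants. For 18 genes of carbohydrate digestion the median was 0.06 in Setdb1 mutants and -0.95, -0.81 and -0.26 in the others. Without Setdb1 replicate A the Setdb1 median turned to -0.16. Of 29 UDP-glycosyltransferase genes, which conjugate sugars to small molecules, 15 were higher in Setdb1 mutants than in the mean of the others and 1 was lower. The 15 were 51.7% of the list, beside 13.3% of all tested genes. For Ugt35E2 the difference from the mean of the others was 1.49 ± 0.17 (SE, adjusted p = 1.56e-05), with no call against wildtype (0.11, adjusted p = 0.627). GstE5, a glutathione transferase, was -0.27 from wildtype (adjusted p = 0.086) and exceeded the mean of the others by 2.28 ± 0.12 (SE, adjusted p = 1.12e-09). In whole larvae, fewer cells of a type and less RNA per cell cannot be told apart. The 4 gut markers alphaTry, betaTry, Jon65Aiv and mag, of which 1 rose and 3 fell, summed to a log2 signal of 14.41 to 14.73 in Setdb1 mutants. Their sum was 15.13 to 15.24 in wildtype and 14.58 to 14.99 in the other mutants, and its part in the changes of digestive genes was not tested.

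**Figure D3:**
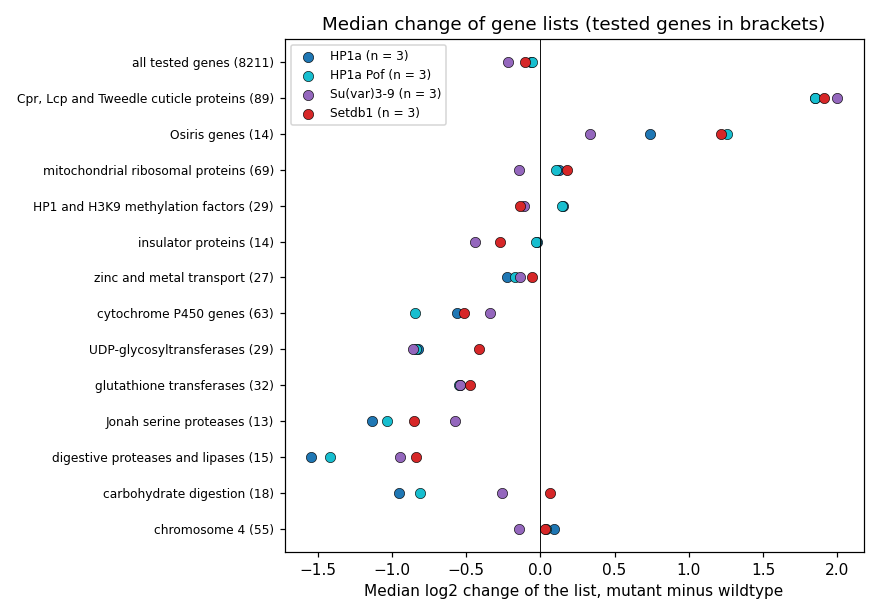
Median log2 change against wildtype (horizontal axis) of 13 gene lists and of all tested genes, 1 point per mutant genotype, with the number of tested genes in brackets. Setdb1 (red) lies to the right of the other mutants for UDP-glycosyltransferases, at -0.42, and carbohydrate digestion, at 0.06 (-0.16 without Setdb1 replicate A), among other lists.

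Rises that set Setdb1 mutants apart were mostly smaller. CG11300, a gene of unknown function on 2R, read 13.73, 13.92 and 13.64 in Setdb1 mutants and 8.65 to 9.46 (median 8.86) in wildtype, a rise of 4.84 ± 0.16 (SE, adjusted p = 1.72e-12). The other mutants rose as well, to 12.06 to 13.23 (median 12.60), so the difference from their mean was only 1.04 ± 0.15 (SE, adjusted p = 0.000141). Jig rose by 3.34 ± 0.38 (SE, adjusted p = 3.5e-06), with Setdb1 arrays at 7.55, 8.51 and 9.80 against 5.08 to 5.46 (median 5.27) in wildtype and 5.01 to 6.88 (median 5.72) in the other mutants. The 3 Setdb1 arrays of Jig were far apart from each other, and all lay above the 15 others. Its wildtype arrays read under the filter of 6, which Jig passed only through mutant arrays. Jig adjoins CG14851 on 3R, which rose by 5.73 in Setdb1 mutants and also in the others. CG3552 rose by 2.01, the P450 gene Cyp6a20 by 1.78, CG7631 by 1.67 and CG18179 by 2.75. For these 4 the largest adjusted p over the comparisons with wildtype and the 3 other groups was 0.00295. CG9119, CG10959, Ugt49B2 and the tetraspanin gene Tsp96F rose by 1.29, 1.26, 1.23 and 1.21, with the 3 Setdb1 arrays above all others in each. Adk3, a gene of the adenylate kinase family, rose by 1.00 and lay 1.08 above the mean of the others.

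Several enzymes of sugar metabolism were among the 71 higher genes. Galk, which encodes galactokinase, the first enzyme of galactose breakdown, read 10.29, 10.59 and 10.29 in Setdb1 mutants, 8.75 to 8.89 (median 8.84) in wildtype and 8.48 to 9.05 (median 8.76) in the other mutants. All 3 arrays lay above every other array, the rise was 1.56 ± 0.09 (SE, adjusted p = 1.49e-09), and the difference from the mean of the others was 1.65 ± 0.08 (SE, adjusted p = 7.59e-10). AGBE, the glycogen branching enzyme, read 10.68, 10.90 and 10.66 against 9.56 to 9.83 (median 9.77) in wildtype, a rise of 1.00 ± 0.07 (SE, adjusted p = 4.23e-08). The glycolytic enzymes Pgi and Pgk rose by 0.39 and 0.42. Of 26 tested genes of glycolysis and the tricarboxylic acid cycle, 9 were higher than wildtype (34.6%, beside 17.3% of all tested genes). A further 6 were lower (23.1%, beside 35.2%). Against the mean of the other mutants 8 of them were higher and 1 lower, with a median of 0.06 beside 0.02 for all tested genes. Of 56 respiratory chain genes 17 were higher than that mean and 1 lower (median 0.12), and of 69 mitochondrial ribosomal protein genes 22 and 3 (median 0.15). The shares of higher genes in these 3 lists were 30.8%, 30.4% and 31.9%, beside 13.3% of all tested genes. Without Setdb1 replicate B these counts of higher genes became 4, 5 and 10, and without Setdb1 replicate C the last became 5. The last also became 10 when blocked by replicate letter. Without the HP1a Pof arrays the first became 4 higher and the second 11, and without the Su(var)3-9 arrays the first became 7 higher and 3 lower and the last 14 and 4. Against wildtype, 34 of the 69 rose and none fell by limma, with none lower at an unadjusted p under 0.05 either. Of 37 cytoplasmic ribosomal protein genes, 0 were called against wildtype by limma, with 1 at an unadjusted p under 0.05, and 12 rose with arrays centred on the median gene. The scavenger receptor gene crq, expressed in haemocytes, rose by 0.70 ± 0.14 (SE, adjusted p = 0.000531). Of the 6 haemocyte markers, 5 were tested, with Hml higher (0.38) and NimC1, PPO1, PPO2 and Pxn lower (-0.65, -1.03, -0.81 and -0.72). The 6 summed to a log2 signal of 10.72 to 10.80 in Setdb1 mutants, 11.27 to 11.47 in wildtype and 10.41 to 11.07 in the other mutants, and their part in the crq result was not tested. A longer list of haemocyte genes, with 21 tested, went both ways. Of these, 11 were higher than wildtype (52.4%, beside 17.3% of all tested genes) and 9 lower (42.9%, beside 35.2%), with a median of 0.27.

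Genes of H3K9 methylation itself were examined next. The RNA of wde, whose product Windei binds Setdb1, read 9.15, 9.11 and 9.24 in Setdb1 mutants and 8.06 to 8.26 (median 8.22) in wildtype, and the other mutants read 7.37 to 8.40 (median 8.25). The Setdb1 arrays lay above all 15 others, the rise was 0.97 ± 0.09 (SE, adjusted p = 3.82e-07), or 1.96-fold, and the difference from the mean of the others was 1.10 ± 0.09 (SE, adjusted p = 1.48e-07). The tested neighbours, CG33144 and CG12935, changed by -0.51 and -0.30. HP4, which encodes a partner of HP1a, was lower at 8.68, 9.25 and 9.12 against 9.23 to 9.47 (median 9.33) in wildtype, a change of -0.32 ± 0.12 (SE, adjusted p = 0.0297). The HP4 arrays overlapped, and the call ended without Setdb1 replicate A (-0.15, adjusted p = 0.261). It also ended with arrays centred on the median gene (adjusted p = 0.121), with wildtype A to C only (adjusted p = 0.0638), and without wildtype replicate B or C (adjusted p = 0.0574 and 0.0534). Pof was -0.50 from wildtype (adjusted p = 0.0323), and this call ended when blocked by replicate letter (-0.57, adjusted p = 0.0715). It also ended without any one of the 3 Setdb1 arrays (adjusted p between 0.0552 and 0.0989) and without wildtype replicate A (adjusted p = 0.0567). The same held with arrays centred on the median gene (adjusted p = 0.0724) and with wildtype A to C only (adjusted p = 0.0683). The histone demethylase gene Kdm4A and the HP1 family gene HP6 were not called against wildtype, and were -0.41 and -0.42 from the mean of the other mutants (adjusted p = 0.00442 and 0.0459). The call of HP6 ended without any one of the 3 Setdb1 arrays (adjusted p between 0.101 and 0.133) and when blocked by replicate letter (adjusted p = 0.0934). Of 29 tested HP1 and H3K9 methylation factors, 5 were higher (17.2%) and 9 lower (31%) than wildtype, with a median of -0.14, shares near the 17.3% and 35.2% of all tested genes. Without Setdb1 replicate B or C the 9 became 5, and without C the 5 became 3. Against the mean of the other mutants 3 were higher (10.3%, beside 13.3% of all tested genes) and 8 lower (27.6%, beside 7.81%). These became 3 and 3 without the HP1a Pof arrays, 3 and 15 without the Su(var)3-9 arrays, and 2 and 5 without Setdb1 replicate B.

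Setdb1 is known to act on germ line genes and together with the piRNA pathway in the ovary. Of 16 tested genes of the piRNA pathway, which guides silencing of transposable elements, 1 was higher (spn-E, 0.31, adjusted p = 0.0156) and 6 lower, with a median of -0.08, or 0.03 with arrays centred on the median gene. The largest of these falls were in tud (-0.67) and mino (-0.57). The helicase gene armi read 5.94, 6.10 and 6.17 in Setdb1 mutants, overlapping the wildtype range of 5.95 to 6.19, and lay 0.57 below the mean of the other mutants (adjusted p = 0.000177). Of 12 tested germ line genes, 0 were called higher and 3 lower by limma, with 1 higher at an unadjusted p under 0.05. The lower genes were 37.5% of the piRNA list and 25% of the germ line list, beside 35.2% of all tested genes. The germ line marker vas stayed below the filter in all groups, at 4.30 to 4.41 in Setdb1 mutants and 4.17 to 4.33 in wildtype. The testis markers can, bam, aly and betaTub85D were below it in Setdb1 and wildtype arrays. Of 52 listed testis genes 4 passed the filter, 1 of them higher and 2 lower.

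A further set of genes was high in the HP1a, HP1a Pof and Su(var)3-9 mutants and stayed at or near the wildtype level in Setdb1 mutants. These genes were picked after their values were seen. CG9259 and Cpr49Ad, and CG6738 and tobi below, read under the filter of 6 in all Setdb1 and wildtype arrays. They passed it only through the other mutants, so part of their separation from those was fixed by the filter. Their comparison of Setdb1 mutants with wildtype is between signals near the array's floor. CG9259, an ecdysteroid kinase-like gene on 2L, read 4.89, 4.99 and 5.36 in Setdb1 mutants and 4.52 to 4.89 (median 4.58) in wildtype. The 9 other mutant arrays, with no overlap, read 9.79 to 11.02 (median 10.41). The changes from wildtype were 6.10 in HP1a, 5.69 in HP1a Pof and 5.51 in Su(var)3-9 mutants, and 0.43 ± 0.15 (SE, adjusted p = 0.023) in Setdb1 mutants, a call that ended when blocked by replicate letter (0.33, adjusted p = 0.0645). The cuticle protein gene Cpr49Ad read 4.82, 4.81 and 5.39 in Setdb1 mutants, 4.82 to 5.44 (median 5.20) in wildtype and 9.33 to 10.77 (median 10.35) in the other mutants. Setdb1 mutants lay below the mean of the others by a log2 difference of -5.20 ± 0.15 (SE, adjusted p = 4.2e-13) for Cpr49Ad and of -5.34 ± 0.14 (SE, adjusted p = 1.55e-13) for CG9259. The neighbour of Cpr49Ad, Cpr49Ac, was -0.35 from wildtype (adjusted p = 0.266).

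CG6738 read 4.55, 4.86 and 4.96 in Setdb1 mutants, inside or just under the wildtype range of 4.71 to 5.18, and 6.06 to 7.44 (median 7.06) in the other mutants. For tobi, an insulin-responsive alpha-glucosidase gene, Setdb1 mutants read 5.03, 4.55 and 4.54, wildtype 4.52 to 4.86 (median 4.75) and the other mutants 5.64 to 8.63 (median 7.10). The antifungal peptide gene Drs (drosomycin) read 6.07, 6.07 and 5.92 in Setdb1 mutants, within the wildtype range of 5.36 to 6.10, and 6.60 to 9.23 (median 7.54) in the other mutants. Each of the 3 genes was thus separated from all 9 other mutant arrays. The nuclease gene mre11, of DNA double-strand break repair, read 7.15, 7.43 and 6.99 in Setdb1 mutants, 7.08 to 7.24 (median 7.16) in wildtype and 8.21 to 8.91 (median 8.69) in the other mutants. Setdb1 mutants lay below the mean of the others by 2.09 for CG6738, 2.27 for tobi, 1.79 for Drs and 1.45 for mre11 (adjusted p = 3.38e-09, 2.3e-05, 0.0012 and 2.18e-09). None of the 4 was called against wildtype (adjusted p = 0.452, 0.98, 0.517 and 0.77), which for CG6738 and tobi compares signals under the filter. The genes ng1 and ng2, near-identical neighbours whose probes may read both, overlapped between groups. The gene ng1 read 5.18, 8.40 and 8.04 in Setdb1 mutants and 6.48 to 7.96 (median 7.61) in wildtype, against 7.99 to 11.21 in HP1a, 6.50 to 8.69 in HP1a Pof and 11.91 to 12.25 in Su(var)3-9 mutants. Of the other mutants, the Su(var)3-9 arrays did not overlap Setdb1 mutants in ng1, and the call against the mean of the others (-2.74, adjusted p = 0.00852) ended without Setdb1 replicate A (-1.73, adjusted p = 0.0771).

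**Figure D4:**
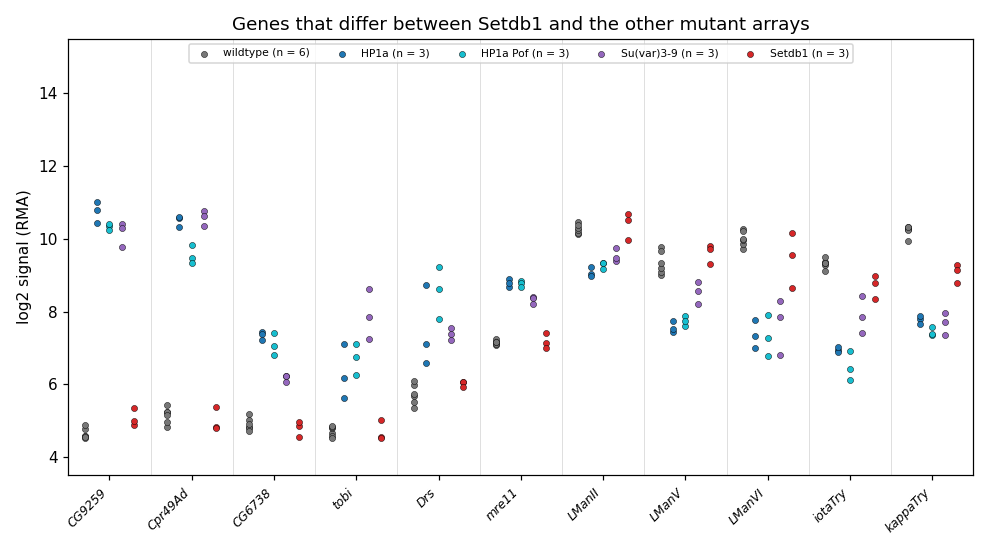
RMA log2 signal (vertical axis) of each array for 11 genes that differed between Setdb1 and the other mutants, 1 point per array, coloured by genotype. In the 6 genes at the left Setdb1 arrays (red) lie with wildtype (grey) and below the other mutants, and in the 5 at the right they lie above most or all other mutants.

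Over all tested genes these differences ran in both directions. Against each of the 3 other mutant groups, 347 genes were higher in Setdb1 mutants (4.23%) and 127 lower (1.55%). Without Setdb1 replicate B these became 196 and 94, without the HP1a Pof arrays 382 and 172, and without the Su(var)3-9 arrays 698 and 552. Of the 347, 139 were not called against wildtype and 137 were lower than wildtype, which left the 71 set apart. Of the 127, 30 were not called against wildtype and 10 were higher, which left the 87. The direction was opposite to that of the mean of the other mutants, each against wildtype, in 51 genes with all 3 groups in that mean, 30 of them higher in Setdb1 mutants and 21 lower. FucTC, a fucosyltransferase gene, rose by 0.80 ± 0.09 (SE, adjusted p = 2.67e-06) in Setdb1 mutants and read 7.71, 7.79 and 7.67, against 6.77 to 7.04 (median 6.92) in wildtype and 5.81 to 6.74 (median 6.51) in the other mutants. The 3 sets did not overlap. Naglu, a lysosomal enzyme gene, fell to 5.69, 5.67 and 5.04 from 7.08 to 7.45 (median 7.27) in wildtype, while HP1a and HP1a Pof mutants read 9.28 to 9.42 and 9.43 to 9.56. In Su(var)3-9 mutants Naglu also lay below wildtype, at 6.02 to 6.65. CG32071 fell by 2.11 and changed by 0.22 in HP1a, -0.90 in HP1a Pof and 2.64 in Su(var)3-9 mutants. CG9205 fell by 1.20, with Setdb1 arrays at 7.77, 7.91 and 7.87 against 9.01 to 9.13 (median 9.04) in wildtype and 9.09 to 9.33 (median 9.20) in the others. CG31759 rose by 0.63 and CG31091 by 0.67, and the call of CG31091 ended without Setdb1 replicate A or B (0.53 and 0.49, adjusted p = 0.0907 and 0.104). CG11000 fell by 0.74, a call that ended without Setdb1 replicate C (-0.55, adjusted p = 0.0813).

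Some large changes were shared with 1 or a pair of the other genotypes. The adjacent X-linked serine protease genes Ser6 and CG1304 were high in both histone methyltransferase mutants. CG1304 read 9.82, 9.94 and 9.38 in Setdb1 and 9.16 to 9.64 in Su(var)3-9 mutants, against 4.28 to 4.49 (median 4.36) in wildtype, 4.04 to 4.70 in HP1a and 4.94 to 5.78 in HP1a Pof mutants. It passed the filter of 6 only through the Setdb1 and Su(var)3-9 arrays, so part of this separation was fixed by the filter. Ser6 read 10.27, 10.62 and 10.42 in Setdb1 and 10.19 to 10.61 in Su(var)3-9 mutants, against 9.13 to 9.46 in wildtype, and was lower, at 7.21 to 7.66 and 7.52 to 7.76, in the HP1a and HP1a Pof mutants. Cyp12d1-d showed the other pairing. This P450 gene read 4.10, 4.14 and 4.37 in Setdb1 mutants and 4.57 to 4.77 and 4.30 to 4.48 in the HP1a and HP1a Pof mutants, but 8.69 to 9.12 in Su(var)3-9 mutants and 9.43 to 9.88 (median 9.58) in wildtype. A near-identical copy, Cyp12d1-p, may share its probes.

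Many genes next to the centromeres, embedded in or bordering pericentromeric heterochromatin, were lower in the other mutants than in Setdb1 mutants. The window was chosen after the values were seen, as the 20 tested genes nearest the centromere on each of 2L, 2R and 3L, by gene order. Over these 60 genes the median change from wildtype was -0.15 in Setdb1 mutants and -0.40 in HP1a, -0.35 in HP1a Pof and -0.36 in Su(var)3-9 mutants. Of the 60, 25 were called higher in Setdb1 mutants than in the mean of the others (41.7%) and 2 lower. The 25 became 14 without Setdb1 replicate B and 19 without replicate C, and was 24 without the HP1a Pof arrays and 24 without the Su(var)3-9 arrays, with 0 and 5 lower. With 10 genes per arm the median difference from the mean of the others was 0.31, with 17 of 30 higher, and with 40 per arm it was 0.13, with 33 of 120 higher. At 40 per arm the medians against wildtype were -0.13 in Setdb1, -0.13 in HP1a, -0.09 in HP1a Pof and -0.34 in Su(var)3-9 mutants, so the gap to the HP1a genotypes was not seen in that window. In the next 20 genes of each of these arms, 8 were higher (13.3%, the share over all genes) and 3 lower. Of the 60 nearest genes, 10 were higher and 23 lower than wildtype in Setdb1 mutants, beside 17.3% and 35.2% of all tested genes. On 3R and X the 20 nearest genes held 1 and 4 that were higher than the mean of the others (5% and 20%, beside 13.3%). Those that were lower numbered 4 and 2 (20% and 10%, beside 7.81% of all tested genes).

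On 2R the 3 tested genes nearest the centromere were among those set apart. Yeti, an essential gene within heterochromatin, read 11.80, 11.99 and 12.03 in Setdb1 mutants, 11.18 to 11.39 (median 11.33) in wildtype and 10.58 to 11.16 (median 10.91) in the other mutants. CG40191 read 10.43, 10.55 and 10.66, 9.87 to 10.12 (median 10.02) and 9.26 to 9.65 (median 9.54) in the same order. In both, the Setdb1 arrays lay above and the other mutants below the wildtype range, with changes of 0.63 ± 0.09 (SE, adjusted p = 4.59e-05) and 0.54 ± 0.08 (SE, adjusted p = 4.35e-05) in Setdb1 mutants. CG40498 rose by 0.62 ± 0.17 (SE, adjusted p = 0.00655), and this call ended without Setdb1 replicate A (0.45, adjusted p = 0.0578). On 2L the light gene (lt), a classical heterochromatic gene, was -0.05 from wildtype in Setdb1 mutants (adjusted p = 0.596), 0.23 from the mean of the others, and changed by -0.40 in HP1a, -0.42 in HP1a Pof and -0.03 in Su(var)3-9 mutants. The gene cta, also in heterochromatin, was -0.14 from wildtype in Setdb1 mutants, 0.35 from the mean of the others, and changed by -0.60 in HP1a, -0.46 in HP1a Pof and -0.40 in Su(var)3-9 mutants. The calls of lt and cta against that mean ended without Setdb1 replicate B (adjusted p = 0.101 and 0.116) or C (adjusted p = 0.169 and 0.138), and when blocked by replicate letter (adjusted p = 0.0766 and 0.0538). On 3L, CG40160 fell by 0.80 in Setdb1 mutants and changed by -2.61 in HP1a, -2.55 in HP1a Pof and -1.79 in Su(var)3-9 mutants. These genes sit among repeats, and whether their probe sets read unique transcripts was not tested.

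**Figure D5:**
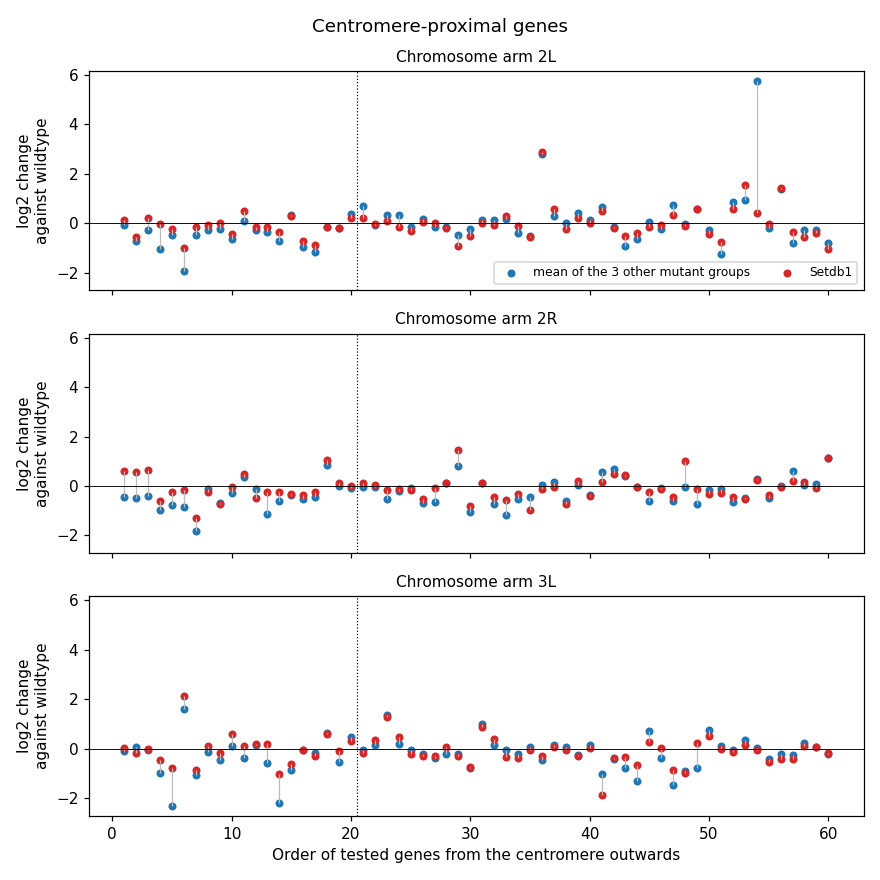
Log2 change against wildtype (vertical axis) of the 60 tested genes nearest the centromere on each of 2L, 2R and 3L (a panel each), in order from the centromere outwards (horizontal axis). Red points are Setdb1 mutants, blue points the mean of the 3 other mutant groups, grey lines join the 2 values of a gene, and the 20 nearest genes of each arm lie left of the dotted line, where most red points lie at or above the blue ones.

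On chromosome 4, 13 of 55 tested genes were higher and 13 lower than wildtype in Setdb1 mutants (23.6% each, beside 17.3% and 35.2% of all tested genes). With each array centred on its median gene they were 20 and 8, with a median of 0.145. On the scale as deposited the median was 0.03, beside -0.11 for all tested genes. The corresponding medians were 0.09 in HP1a, 0.04 in HP1a Pof and -0.15 in Su(var)3-9 mutants. On this chromosome 4 genes were higher in Setdb1 mutants than in the mean of the others (7.27%, beside 13.3% of all tested genes). The genes lower than that mean were 5.45%, beside 7.81%, so both shares were under those of all tested genes. The higher genes were Gat, dpr7, Pur-alpha and Mpv17 (0.69, 0.39, 0.38 and 0.34). Zip102B, gw and Gyf were lower (-3.27, -0.53 and -0.37), and Zip102B alone was set apart by the strict rule. These names, all such genes in the comparison with all 3 other groups, were chosen after their values were seen. Without the Su(var)3-9 arrays 7 genes of chromosome 4 were higher and 8 lower than the mean of the others, and without Setdb1 replicate A 2 and 4. The 40 tested genes nearest the Setdb1 gene on 2R had a median change of -0.04, with 3 higher (7.5%) and 14 lower (35%) than wildtype. The shares over all tested genes were 17.3% and 35.2%. Of the 40, 0 were among the 158 set apart by limma, which were 0.865% (higher) and 1.06% (lower) of all tested genes. The remaining genes of 2R had a median of -0.14.

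Cuticle protein genes were mostly higher than wildtype, and genes of proteases and glutathione transferases mostly lower. Of 89 tested cuticle protein genes 67 rose (75.3%, beside 17.3% of all tested genes) and 6 fell (6.74%, beside 35.2%), with a median of 1.91. In the comparison with the mean of the other mutants 2 were higher (2.25%, beside 13.3% of all tested genes) and 3 lower (3.37%, beside 7.81%). These became 3 and 8 without the HP1a Pof arrays, 2 and 1 without the Su(var)3-9 arrays, and 1 and 8 without Setdb1 replicate C. Of 14 Osiris genes, which are expressed in cuticle-forming epithelia, 8 rose (57.1%, beside 17.3% of all tested genes) and 0 fell by limma. At an unadjusted p under 0.05 these were 9 and 0. Against the mean of the other mutants 0 were called by limma, with 3 higher at an unadjusted p under 0.05. Of 13 Jonah serine protease genes 12 fell (92.3%, beside 35.2% of all tested genes, median -0.85). Against the mean of the others, 6 were higher (46.2%, beside 13.3% of all tested genes) and 3 lower (23.1%, beside 7.81%). Of 32 glutathione transferase genes 20 fell (62.5%, median -0.47), while 6 were higher (18.8%, beside 13.3% of all tested genes) and 3 lower (9.38%, beside 7.81%) than that mean. Of 14 insulator protein genes 6 were lower (42.9%, beside 35.2% of all tested genes) and 1 higher than wildtype (median -0.27), and 0 were called against the mean of the others by limma (1 lower at an unadjusted p under 0.05), but 6 were lower without the Su(var)3-9 arrays. Of 43 synaptic and neuronal genes 5 were higher (11.6%) and 12 lower (27.9%), shares under the 17.3% and 35.2% of all tested genes. The 12 became 7 without Setdb1 replicate B. The median of the 43 was -0.11 in Setdb1 mutants and 0.31, 0.49 and -0.28 in HP1a, HP1a Pof and Su(var)3-9 mutants. The muscle markers Mlc2 and up were not called (adjusted p = 0.896 and 0.794). Markers of late larvae, Sgs3, Sgs4, Sgs7, Sgs8 and Lsp2, summed to 7.50 to 7.60 in Setdb1 mutants, 7.44 to 7.70 in wildtype and 7.45 to 11.63 in the other mutants, and none of the 5 was tested. Of 5 late larval genes that were tested, among them ng1 to ng4, 1 was higher than wildtype, and 4 were lower than the mean of the others, or 1 without the Su(var)3-9 arrays and 2 without Setdb1 replicate A.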

How the data were processed

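Total RNA from 18 pools of larvae was read on 1-colour Affymetrix arrays, and the authors deposited log2 signals of 18952 probe sets after RMA, per the submitters' processing notes. No RMA version is given in the sources used here. The deposited log2 values were used as they stand. A gene was taken from probe sets annotated to 1 gene symbol (13647, for 11982 genes), with symbols updated through a RefSeq gene table, and the probe set with the highest mean signal was kept for each of the 1094 genes with several. RefSeq also gave the chromosome arm and gene order. Genes with a log2 signal of 6 or more on at least 3 arrays were tested (8211). limma 3.58.1 (R 4.3.3) fitted 1 mean per genotype over the 18 arrays, with 13 residual degrees of freedom, and p-values were adjusted by Benjamini-Hochberg over all 8211 genes (called below 0.05). All p-values come from this limma fit, a model fitted across all genes, and 18 arrays limit the precision. The fit was tested on simulated data. Changes are log2 differences.

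Named genes were the targeted genes and wde. They also included the 12 largest rises and 12 largest falls that set Setdb1 mutants apart from all 15 other arrays. The 6 largest rises and 6 largest falls against wildtype and up to 4 members of each list were added. Of the genes of opposite direction, the 4 with the largest changes from wildtype in Setdb1 mutants were taken each way. Not all named genes are described. Any other named gene was chosen after its values were seen. The rule, the members and the gene lists were chosen with earlier results of these data known.

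The labels do not say that a shared replicate letter marks a batch or a pair, and the main fit took the arrays as unpaired. Same-letter arrays of Setdb1 and wildtype deviated together (correlations of deviations from the group means over genes of 0.198, 0.405 and 0.342 for A, B and C). However, Setdb1 C correlated more with wildtype E (0.471). With Su(var)3-9 the lowest same-letter correlation was -0.009. A fit with the letter as a block was therefore run as an alternative. Further alternatives were other filters, centring, array weights, a variance trend, the mean of a gene's probe sets, fewer wildtype arrays, and leaving out each array or a genotype. Probe sets naming several genes or none were left out of the gene tests. No sequence or genome position is given.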

Additional observations from a re-analysis of the deposited data

Results flagged for a closer look

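The 6 wildtype arrays of 85 named genes were examined for 1 array far from the other 5, and 4 genes had one, where chance flags about 1 in 20. The gap to the nearest array, as a share of the whole wildtype range, was 0.729 for CG18179 (array F high, at 7.52 against 7.21), 0.713 for AGBE (array F low, at 9.56), 0.803 for kappaTry (array A low, at 9.94) and 0.896 for crq (array B high, at 8.35). None of these 4 genes lost its call against wildtype in the fit without that array.

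In 51 genes Setdb1 mutants and the mean of the other mutants were called in opposite directions against wildtype. All had a called difference between them by limma. The 8 with the largest changes from wildtype in Setdb1 mutants are named (4 each way). They were not picked by their difference from the mean of the other mutants. Setdb1 mutants lay above that mean by 1.29 in FucTC, 1.95 in Ser6, 1.36 in CG31091 and 0.912 in CG31759. The differences were -2.77 in CG32071, -2.9 in Naglu, -1.36 in CG9205 and -1.14 in CG11000.

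Among 991 tested probe sets that name no gene, 166 were higher (16.8%) and 250 lower (25.2%) in Setdb1 mutants than in wildtype, and 9 higher and 15 lower ones met the rule for being set apart.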

How the results depend on the processing

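With the replicate letter as a block, 1174 genes were higher and 2663 lower than wildtype, 1011 and 678 differed from the mean of the other mutants, 69 and 82 were set apart, 307 and 122 differed from each other group, and beyond the calls named above the block moved no count of these by over 1.5 times. Of the 158 genes set apart, 135 kept their call with the block and 110 with wildtype A to C only. Leaving out each array in turn gave 1186 to 1414 genes higher and 2359 to 2834 lower than wildtype. Against the mean of the other mutants it gave 597 to 1182 higher and 346 to 1021 lower, both lowest without Setdb1 replicate B and the last highest without Su(var)3-9 replicate C. It gave 40 to 81 higher and 63 to 124 lower genes set apart, and 196 to 401 higher and 94 to 183 lower genes against each other group. Leaving out a genotype was an alternative added after the data were seen. Without the Su(var)3-9 arrays 1374 genes were higher and 1632 lower than the mean of the others. In that setting 129 were higher and 223 lower in the set apart, and 698 were higher and 552 lower than each other group. The cause was not tested. Asking for a log2 difference of at least 1 in all 4 comparisons left 9 higher and 20 lower genes set apart. A filter at log2 8 gave 968 higher and 2020 lower genes against wildtype with fewer genes tested, and no filter 1812 and 3247. For the change from wildtype of the 85 named genes, 1484 of 1513 values over all alternatives but those that left out other mutants stayed on their side of the threshold, 22 lost a call, 7 gained one and none reversed. Against the mean of the others, 29 values lost a call (HP6, lt, cta, ng1, ng2 and Mal-A6) and 1 gained one (Rnf11). Signals near the array floor limit how far a fall can be measured.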
